A study of Mus musculus with 11 samples.

Results

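The genes described here are the 6 nuclear receptor genes that read out retinoic acid: Rara, Rarb and Rarg, which encode the retinoic acid receptors (RARs), and Rxra, Rxrb and Rxrg, which encode the retinoid X receptors (RXRs). They were chosen by name as the probe sets with a single annotated symbol among those 6. Each gene had 1 such probe set, so they make up 6 of the 19938 genes measured with 1 symbol, and all 6 passed the filter on dim genes that left 11963 genes for testing. Expression was measured on Affymetrix Mouse Gene 1.0 ST arrays in the nucleus accumbens, the ventral part of the striatum, from punches enriched in its shell. The mutants were 5 Rarb-null males, set against 6 wild-type (WT) male littermates, 1 array per mouse. All were behaviourally naive, aged 4 to 5 months, and bred from heterozygous parents on a mixed C57BL/6J and 129SvEms/j background. The part of Rarb removed in the mutant, and the part of the transcript that the probe set reads, are not given in the sources used here. The labels call the mutants RARβ-null and name no deletion limited to a tissue or time.

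RARs are transcription factors that bind all-trans retinoic acid, the active derivative of vitamin A. They work as heterodimers with RXRs, which also pair with thyroid hormone, vitamin D, fatty acid and oxysterol receptors. The pair sits on repeated hexamers in DNA, recruits corepressors without ligand and exchanges them for coactivators when retinoic acid binds. In the striatum Rarb and Rxrg are known as the most characteristic members of their families, and Rarb is itself a classic retinoic acid-induced gene.

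The upstream sequences of the genes were read from RefSeq (build GRCm38.p6), because a receptor gene can be a target of the receptors themselves. The 250 bases before each annotated start are shown for Rarb and Rxrg, the genes whose level fell in the mutants. Rarb has 1 start in that table (chr14:16575477-16575726, minus strand) and Rxrg has 2 (chr1:167598112-167598361 and chr1:167618015-167618264, plus strand). Capitals mark, on either strand, every hexamer reading AGGTCA or one of its common variants, namely AGTTCA, together with GGGTCA and also with GGTTCA. The windows are written 5′ to 3′ in the direction of the gene.
Rarb: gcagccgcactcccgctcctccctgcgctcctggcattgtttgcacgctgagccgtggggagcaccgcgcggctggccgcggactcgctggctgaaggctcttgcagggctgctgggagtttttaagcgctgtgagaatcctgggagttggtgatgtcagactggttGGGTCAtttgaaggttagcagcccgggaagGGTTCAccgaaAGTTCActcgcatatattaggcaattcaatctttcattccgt
Rxrg first start: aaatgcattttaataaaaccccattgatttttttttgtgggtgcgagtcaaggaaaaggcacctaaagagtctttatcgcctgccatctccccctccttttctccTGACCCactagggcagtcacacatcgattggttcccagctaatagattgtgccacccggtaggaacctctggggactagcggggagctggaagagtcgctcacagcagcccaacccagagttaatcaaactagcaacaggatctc
Rxrg second start: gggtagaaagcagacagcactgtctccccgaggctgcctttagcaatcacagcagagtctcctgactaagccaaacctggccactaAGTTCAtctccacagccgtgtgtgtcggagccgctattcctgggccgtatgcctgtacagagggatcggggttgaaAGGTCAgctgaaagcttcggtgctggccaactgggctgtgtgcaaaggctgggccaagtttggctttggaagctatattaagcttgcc

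The Rarb window held 3 hexamers, all on the gene's own strand. Of these, 2 formed the direct repeat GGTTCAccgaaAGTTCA, with a 5-base spacer, from 53 to 37 bases before the start. Direct repeats with this spacing are the best known form of retinoic acid response element, and this one is the textbook element of the Rarb gene. The first Rxrg window held 1 hexamer, on the opposite strand, and the second held 2 on the gene's strand, ending 159 and 83 bases before the start. Over the 6 genes 13 windows were searched on both strands for the 4 hexamers and for direct repeats of any of them with 1, 2 or 5 bases between. Hexamers within a repeat counted in both searches. At least 1 hexamer lay in 6 of the 13 windows (1 of 4 for Rara, 1 of 1 for Rarb, 1 of 2 for Rarg, 1 of 2 for Rxra, 0 of 2 for Rxrb and 2 of 2 for Rxrg). Among all 32851 windows of the same length in the table, 38.6% held a hexamer. The Rarb window was the only one of the 13 with a direct repeat; over all windows the share was 0.164% with 1 base between, 0.174% with 2 and 0.0883% with 5. A match describes letters in this window, not a bound site.

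**Figure D1:**
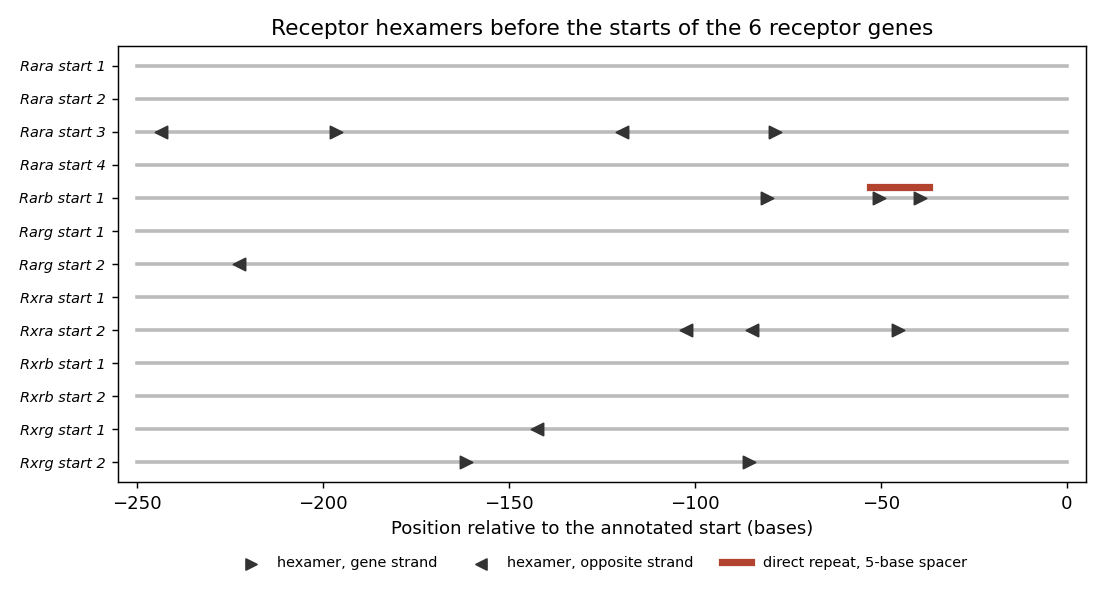
Positions of receptor hexamers in the 250 bases before each annotated start of the 6 receptor genes, with the start at 0 on the x axis (bases) and 1 line per start. Arrowheads give the strand of each hexamer and the bar marks the direct repeat with a 5-base spacer, which lies in the Rarb window at 53 to 37 bases before the start.

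The deposited values are log2 expression after robust multi-array analysis (RMA), and every level and difference below is on that scale. The median probe set lay at 7.08 to 7.11 in Rarb-null and at 7.02 to 7.06 in WT arrays, so a small offset between genotypes remained. The titles and the design text, followed here, count 5 mutants and 6 WT mice, whereas the RNA extraction text swaps these numbers. Of 15 markers of striatal projection neurons, 13 were measured and all 13 passed the filter. So did 8 of 9 measured cortical projection neuron markers, so passing the filter does not identify the tissue. Of 11963 genes tested with limma, 2341 (19.6%) had a Benjamini-Hochberg adjusted p under 0.05, with 905 (7.56%) higher and 1436 (12%) lower in Rarb-null arrays. With each array centred on its median the split was 1677 higher and 939 lower. For 1334 genes (11.2%) no array of one genotype fell within the range of the other. Precision is limited by having 5 and 6 arrays.

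Of the 6 receptor genes, Rarb and Rxrg fell in Rarb-null arrays, none rose and 4 did not pass the test. Rarb is the mutated gene. Of the other 5, 1 fell, beside 12% of all genes tested, and nothing particular to the family is read from that count. The median difference over the 6 genes was -0.053, beside -0.017 over all genes tested.

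Rarb, the gene of the receptor removed in the mutants, read 9.88, 9.86, 10.01, 9.99 and 9.72 in Rarb-null replicates 1 to 5. In the WT arrays its lowest, median and highest levels were 11.70, 11.76 and 11.81. Every array labelled Rarb-null thus lay below every WT array, with a gap of 1.69 between the groups, as the titles have it. The group means were 9.89 ± 0.11 (SD, n = 5) in Rarb-null and 11.75 ± 0.036 (SD, n = 6) in WT arrays. The difference was -1.86 (SE 0.047; limma, Benjamini-Hochberg adjusted p = 4.44e-11). On the linear scale the Rarb-null signal was 27.5% of that in WT (95% interval 25.7 to 29.5%). Since the deleted part and the probed part are not known here, the remaining signal does not measure intact receptor transcript. Rarb-null replicate 5, the lowest of its group for Rarb, also had the lowest projection neuron marker level (11.61) and the highest cortical marker level (9.42) of the 11 arrays.

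Rara encodes RAR alpha, a receptor present in most tissues. It read 7.29, 7.28, 7.19, 7.23 and 7.36 in the 5 Rarb-null arrays, against 7.17, 7.31 and 7.40 as lowest, median and highest of the WT arrays. All Rarb-null values lay within the WT range. The difference was -0.027 (SE 0.045; adjusted p = 0.711 in limma), and its sign turned to 0.013 with arrays centred. The 95% interval ran from -0.12 to 0.07, which is 91.7 to 105% of the WT signal.

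Rarg encodes RAR gamma, known for its role in skin and skeleton. Its levels were 7.79, 7.77, 7.84, 7.95 and 7.74 in Rarb-null arrays, while WT arrays had 7.84, 7.88 and 8.0 as lowest, median and highest. Here 4 of 5 Rarb-null arrays lay below the lowest WT array, replicate 3 by less than the rounding shows, and the remaining one (replicate 4) above the WT median, so the groups overlapped. The difference of -0.079 (SE 0.042; limma adjusted p = 0.2) did not pass the test. The interval of -0.17 to 0.01 corresponds to 88.9 to 101% of the WT signal. With arrays centred the difference was -0.039 (SE 0.044), so the upper limits given for Rara and Rarg hold for the values as deposited and lie higher after centring.

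Rxrg encodes RXR gamma, the RXR of restricted expression. It read 10.49, 10.67, 10.54, 10.50 and 10.67 in the Rarb-null arrays, and 11.34, 11.49 and 11.59 as lowest, median and highest in the WT arrays. The groups did not overlap and stood 0.67 apart. Means were 10.57 ± 0.089 (SD, n = 5) in Rarb-null and 11.47 ± 0.089 (SD, n = 6) in WT arrays, so the spread between mice was about equal in both. Rxrg fell by 0.897 on the log2 scale (SE 0.050; limma, Benjamini-Hochberg adjusted p = 6.81e-08), to 53.7% of the WT signal (95% interval 49.8 to 57.9%). Among all genes tested it ranked 20 by p-value and 22 by the size of the fall. In these bulk samples, fewer cells of a type and less RNA per cell cannot be told apart.

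**Figure D2:**
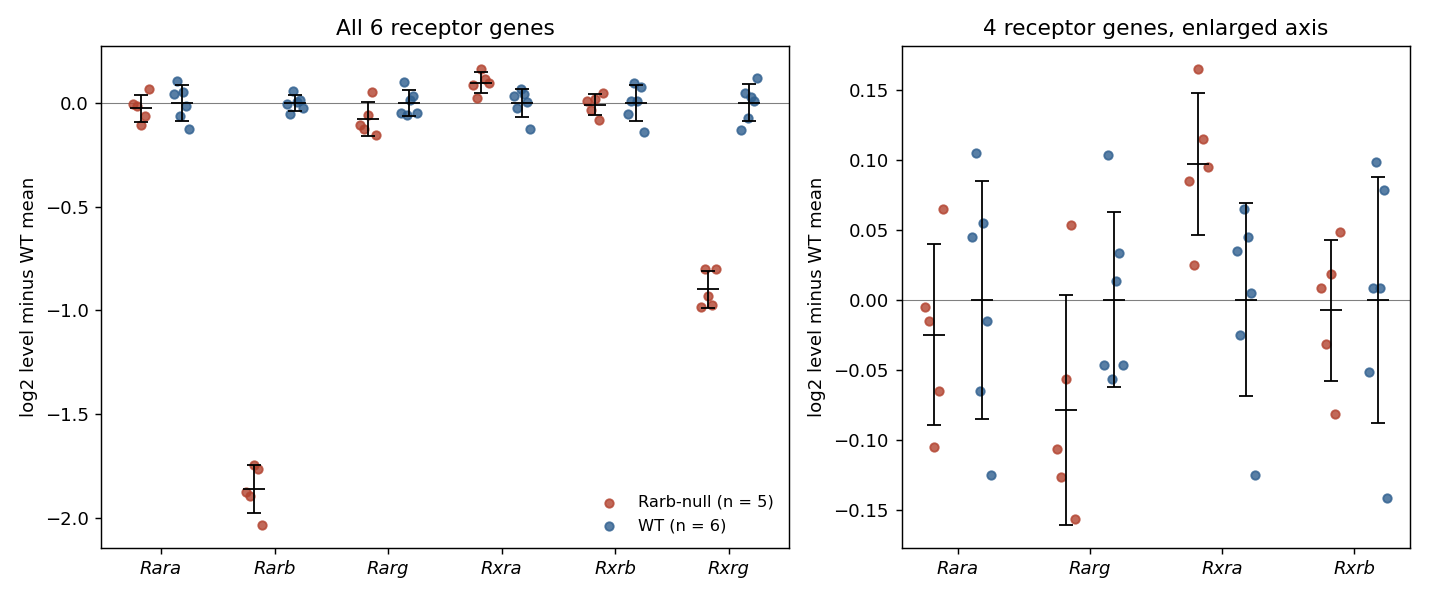
Levels of the 6 receptor genes in each array, as log2 level minus the WT mean of the gene, with Rarb-null arrays (red, n = 5) left of WT arrays (blue, n = 6), and bars for mean and SD. Rarb (-1.86) and Rxrg (-0.90) show groups that do not overlap, and the enlarged panel shows that Rara, Rarg, Rxra and Rxrb overlap between genotypes.

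Markers of striatal projection neurons were lower in the same arrays. Of 13 tested, 10 fell, 0 rose and 3 did not pass, with differences from -0.43 to 0.021 and a median of -0.18. This and the marker counts below stand beside 12% lower and 7.56% higher over all genes tested. Their mean level ran from 11.61 to 11.73 in Rarb-null and from 11.88 to 11.95 in WT arrays, without overlap. Of 8 cortical projection neuron markers tested, 4 rose, 0 fell and 4 did not pass. Differences ran from 0.179 to 0.946, with a median of 0.537. All 8 had an unadjusted limma p under 0.05, as did 4220 of 11963 genes tested. Their mean level was 9.0 ± 0.24 (8.83 to 9.42) in Rarb-null and 8.44 ± 0.30 (8.12 to 8.87) in WT arrays. All 3 cholinergic neuron markers fell (8.23 ± 0.056 in Rarb-null, 8.51 ± 0.084 in WT), as did 3 of 9 oligodendrocyte markers (9.68 ± 0.097 in Rarb-null, 9.80 ± 0.10 in WT). Of 6 astrocyte markers 2 fell and 1 rose (mean level 10.14 to 10.23 in Rarb-null, 10.18 to 10.28 in WT). With limma 0 of 5 microglial and 0 of 4 endothelial markers passed (2 and 0 at an unadjusted p under 0.05), and their mean levels differed by -0.0046 and -0.015. With the cortical marker level as a term of the model, Rxrg differed by -0.97 (SE 0.073; limma adjusted p = 5.7e-06), and with the oligodendrocyte marker level by -0.88 (SE 0.062; limma adjusted p = 2.81e-06). Over all alternatives the adjusted p of Rxrg in limma ran from 4.16e-09 to 5.7e-06. WT replicate 2, whose cortical level of 8.87 lay within the Rarb-null range, read 11.52 for Rxrg, but 1 array cannot decide on a cause. The part of the projection neuron and cholinergic markers in the Rxrg result was not tested.

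**Figure D3:**
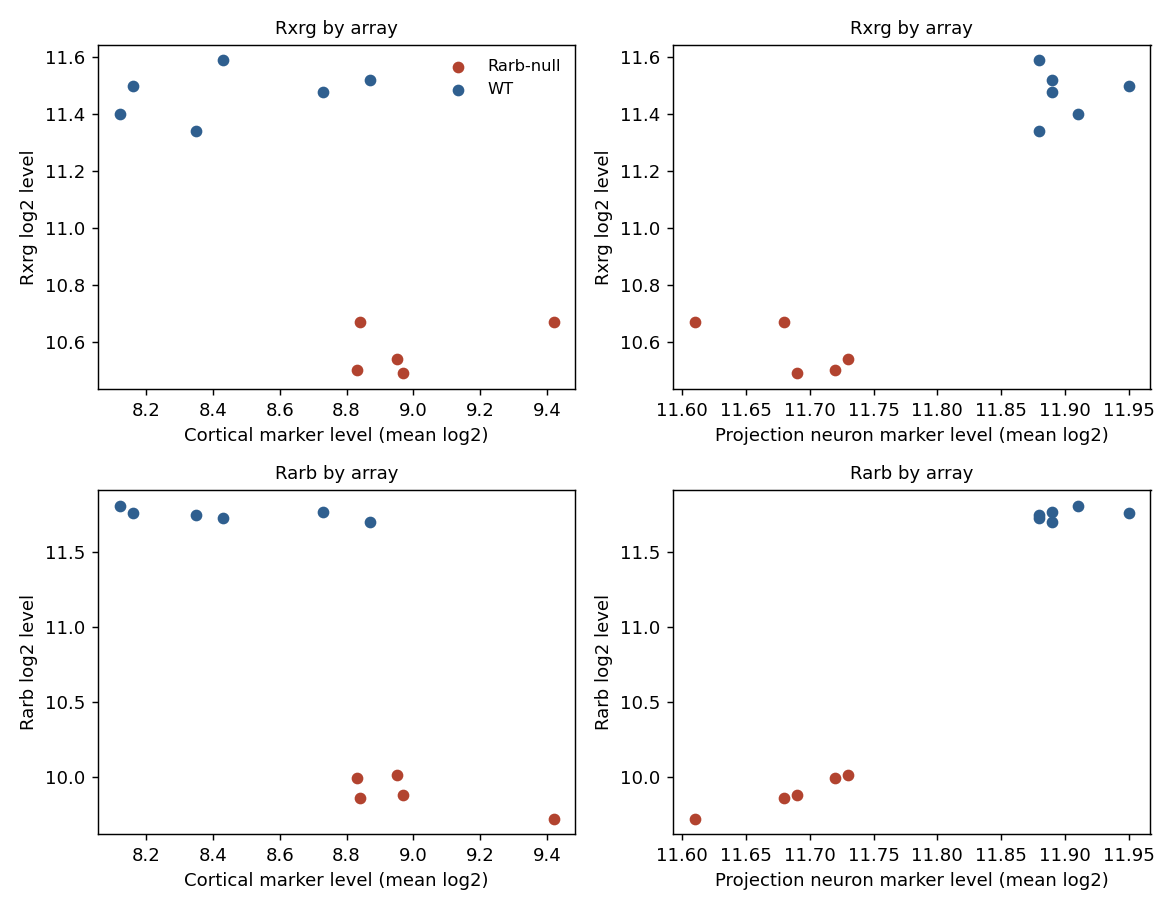
Rxrg (top) and Rarb (bottom) log2 level of each array against the mean log2 level of cortical markers (left) and of striatal projection neuron markers (right), with Rarb-null arrays in red and WT arrays in blue. Rxrg lies from 10.49 to 10.67 in Rarb-null and from 11.34 to 11.59 in WT arrays, and the cortical level overlaps between genotypes while the projection neuron level does not.

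Rxra encodes RXR alpha, the broadly expressed partner. Its levels were 8.35, 8.29, 8.43, 8.38 and 8.36 in Rarb-null arrays, against 8.14, 8.29 and 8.33 as lowest, median and highest in WT arrays. All 5 Rarb-null arrays lay above the WT median and 4 above the highest WT array. The difference was 0.093 (SE 0.039; unadjusted p = 0.0324 and Benjamini-Hochberg adjusted p = 0.108 in limma). It did not pass, although the 95% interval of 0.0091 to 0.18 (101 to 113% of WT) lay above 0. With arrays centred, which raised every difference, that of Rxra was 0.13 and passed (limma adjusted p = 0.0288, and 0.0288 to 0.319 over all alternatives). The call on Rxra therefore depends on how the arrays are scaled.

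Rxrb encodes RXR beta, also broadly expressed. It read 9.32, 9.28, 9.33, 9.23 and 9.36 in Rarb-null arrays, while the WT arrays had 9.17, 9.32 and 9.41 as lowest, median and highest. All Rarb-null values lay within the WT range. The difference of -0.0094 (SE 0.044; limma adjusted p = 0.903) turned to 0.031 with arrays centred and to 0.0099 with repeated quantile normalisation. Its interval of -0.11 to 0.09 allowed 93.0 to 106% of the WT signal.

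Whether the members of a family differed from each other in their genotype difference was tested on the log2 ratio of 2 genes within each array. Over 4 pairs, two-sided exact permutation tests over 462 splits of the arrays were run. The Rarb-null minus WT difference was -0.99 for Rxrg over Rxra and -0.89 for Rxrg over Rxrb. It was -1.83 for Rarb over Rara and -1.78 for Rarb over Rarg. The exact p was 0.00216 for each, the smallest value these splits allow, and stayed 0.00216 after adjustment over the 4 pairs. Every Rarb-null array thus had a lower ratio than every WT array. Rarb is the mutated gene, so the fall of its 2 ratios was set by the genotype and is no finding about the family. Among the RXR genes the change was unequal, which restates the fall of Rxrg beside Rxra and Rxrb. A ratio does not show that Rxra, Rxrb, Rara or Rarg did not change.

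The surroundings of the receptors were described by lists of genes named for their role, and none of these lists was tested as a set. Genes that supply or remove retinoic acid changed in both directions. Of 20 listed, 9 passed the filter, and of these 4 fell, 2 rose and 3 did not pass, with a median of -0.052. The shares over all genes tested were 12% lower and 7.56% higher. Stra6, the membrane transporter of retinol, fell by 0.93 (SE 0.082) and averaged 8.82 ± 0.11 in Rarb-null against 9.74 ± 0.19 in WT arrays. Rdh10, which oxidises retinol, fell by 0.56 (SE 0.058), and Fabp5, a carrier of fatty acids and retinoic acid, fell by 0.43 (SE 0.041). Rbp4, the blood carrier of retinol, rose by 0.50 (SE 0.057). Their limma adjusted p values lay between 6.09e-06 and 5.69e-05.

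Of 15 coregulators tested, which the receptors recruit, 2 fell, 1 rose and 12 did not pass. With 3 of 15 called beside 19.6% of all genes, nothing particular to coregulators is read from the count. Their median was -0.020, and 0.021 with arrays centred. Ncoa3 and Ncoa1, genes of p160 coactivators, averaged 8.89 ± 0.037 and 10.60 ± 0.043 in Rarb-null arrays, against 9.09 ± 0.053 and 10.74 ± 0.058 in WT arrays. They fell by 0.20 (SE 0.033; limma adjusted p = 0.00126) and 0.14 (SE 0.035; limma adjusted p = 0.0177), and neither overlapped between genotypes. Nrip1, which encodes a corepressor that binds ligand-activated receptors, rose by 0.12 (SE 0.038; limma adjusted p = 0.0416), but the arrays overlapped and it no longer passed with Rarb-null replicate 1, 2, 3 or 5, or WT replicate 1, 3, 4 or 5, left out singly (limma adjusted p of 0.0527 to 0.0886, and 0.00761 to 0.618 over all alternatives). Lcor, another ligand-dependent corepressor gene, gave -0.15 (limma adjusted p = 0.0559) and passed with Rarb-null replicate 1 or with WT replicate 2 or 3 left out (limma adjusted p of 0.045 to 0.0467, and 0.0424 to 0.654 over all alternatives). With the cortical marker level in the model only the fall of Ncoa3 passed among the 15. Ncoa1 then gave -0.11 (limma adjusted p = 0.257; 0.00986 to 0.257 over all alternatives), with an SE of 0.054 in place of 0.035.

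Other receptors that pair with RXRs were measured for 6 of 13 genes above the filter, with 1 fall, 1 rise and a median of 0.094. With 2 of 6 called beside 19.6% of all genes, nothing particular to RXR partners is read from the count. Thrb, the gene of thyroid hormone receptor beta, fell by 0.48 (SE 0.056; limma adjusted p = 5.87e-05) and averaged 8.75 ± 0.078 in Rarb-null against 9.23 ± 0.11 in WT arrays. Thra, the gene of thyroid hormone receptor alpha, rose by 0.11 (SE 0.028; limma adjusted p = 0.016), with 12.54 ± 0.028 in Rarb-null and 12.43 ± 0.030 in WT arrays. It did not pass once cortical markers were a covariate (0.11; limma adjusted p = 0.158, the highest of its alternatives, which began at 0.00202). Nr4a2, an orphan receptor gene of midbrain dopamine neurons that is also active in cortex, gave 0.66 (SE 0.22; limma adjusted p = 0.054). It passed without WT replicate 2 (0.76, limma adjusted p = 0.0285) and gave 0.46 without Rarb-null replicate 5 (limma adjusted p = 0.106). With the cortical marker level in the model it gave -0.21 (limma adjusted p = 0.254, and 0.0111 to 0.254 over all alternatives). Ppard, which encodes a fatty acid receptor, gave 0.079 (limma adjusted p = 0.17). It gave 0.042 without Rarb-null replicate 5, passed with arrays centred (0.12; limma adjusted p = 0.0415) and turned to -0.013 with the cortical marker level in the model (limma adjusted p = 0.904, the highest of its alternatives). With arrays centred 3 of the 6 RXR partners rose and 1 fell.

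Of 6 tested receptors that bind similar direct repeats without being RARs, limma called 0 (1 at an unadjusted p under 0.05). Among all genes tested 19.6% were called. The median of the 6 was -0.056. Nr2c1, Nr2c2, Nr2f1 and Rora, genes of orphan receptors, gave -0.11, -0.063, -0.10 and -0.049 with limma adjusted p values from 0.0661 to 0.336. Nr2f1 gave -0.064 without Rarb-null replicate 2, -0.057 without replicate 3 and -0.17 without replicate 5. With the cortical marker level in the model it gave -0.27 (limma adjusted p = 0.0925; 0.0595 to 0.631 over all alternatives). Rora gave -0.032 without WT replicate 1. Nr2c1 passed with the replicate number as a block (-0.11; limma adjusted p = 0.0303, and 0.0303 to 0.65 over all alternatives). The arrays of Nr2c1 and of Nr2c2 did not overlap between genotypes, as was so for 11.2% of all genes.

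Among 9 tested genes known to be induced by retinoic acid in other settings, 3 fell, 1 rose and 5 did not pass, with a median of -0.062. Over all genes 12% fell and 7.56% rose. With arrays centred 3 of the 9 fell and 3 rose, so the balance of falls and rises depends on the scaling. The falls were Stra6, already given, Dhrs3, a retinaldehyde reductase gene (-0.53, SE 0.072; limma adjusted p = 0.000236), and Drd2, the dopamine D2 receptor gene (-0.31, SE 0.046; limma adjusted p = 0.00048). The rise was Nrip1. Drd2 is also one of the projection neuron markers above.

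**Figure D4:**
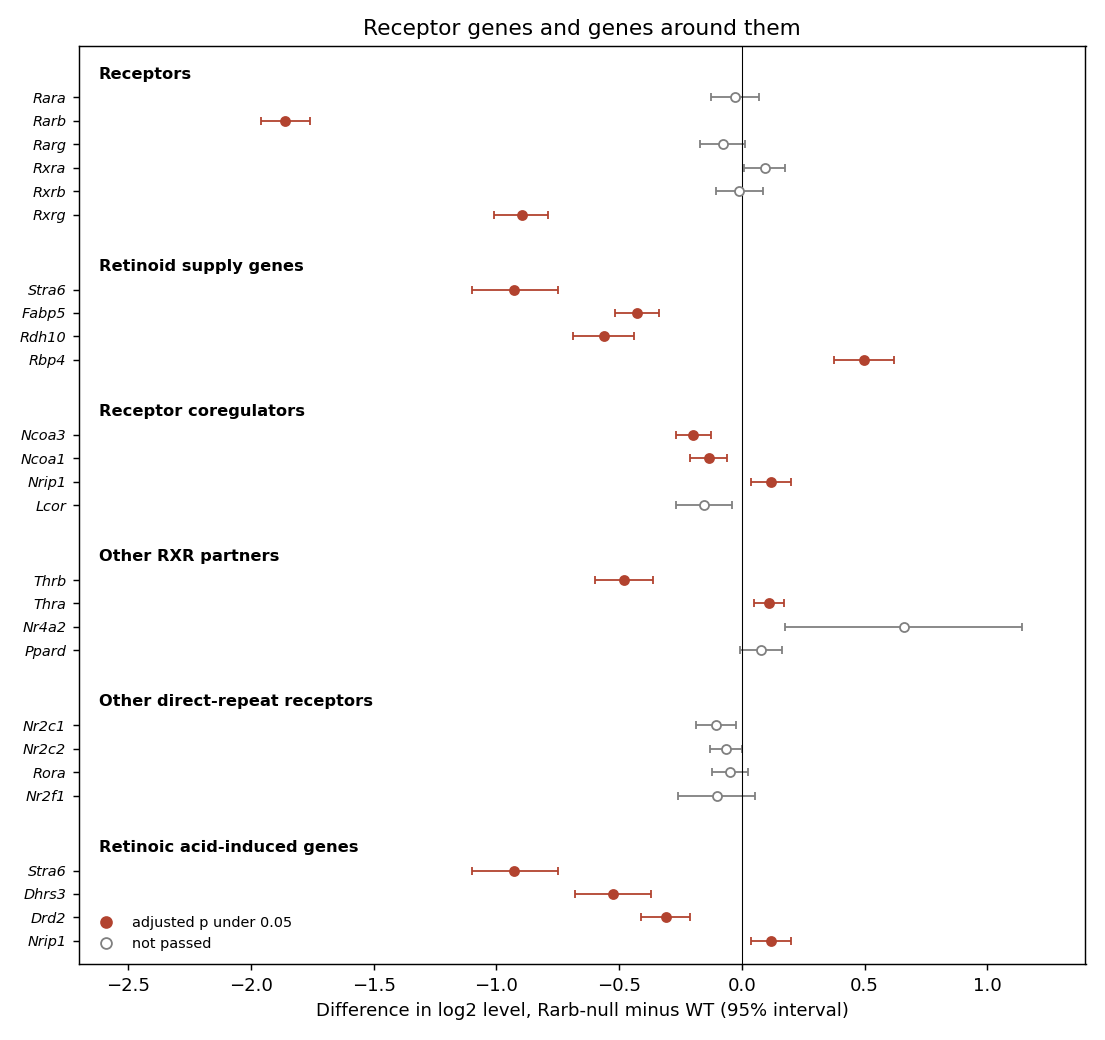
Difference in log2 level, Rarb-null minus WT, with 95% interval for the 6 receptor genes and, below them, the 4 genes of smallest p in each list around them; filled red points passed the adjusted p of 0.05 and open grey points did not. Rarb (-1.86), Stra6 (-0.93) and Rxrg (-0.90) lie farthest left, and Stra6 and Nrip1 appear in 2 lists.

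The genes whose profile over the 11 arrays was nearest to Rarb and to Rxrg were found by root mean square distance, after setting each gene to its WT mean. For Rarb they were Stard5, a lipid carrier gene (distance 0.171), Trhr, the thyrotropin-releasing hormone receptor gene (0.233), and Spint1, a protease inhibitor gene (0.253). Their differences were -2.06, -1.69 and -1.59. For Rxrg they were Zfp804a (0.107), Zfp385b (0.111) and Carhsp1 (0.114). Zfp804a and Zfp385b encode zinc finger proteins. Their levels averaged 9.51 ± 0.10 for Zfp804a, 9.26 ± 0.092 for Zfp385b and 9.27 ± 0.061 for Carhsp1 in Rarb-null arrays. In WT arrays they averaged 10.32 ± 0.077, 10.09 ± 0.031 and 10.09 ± 0.047 in the same order. Each of the 3 fell by 0.81 to 0.83, and none overlapped between genotypes. The 11 arrays fall into 2 genotypes, so the distance rests largely on the size of the genotype difference.

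Leaving out single arrays moved the receptor differences little. Over the 11 such fits Rarb ranged from -1.89 to -1.82 and Rxrg from -0.92 to -0.87, both past the threshold each time. Rara (-0.052 to -0.0051), Rarg (-0.11 to -0.059) and Rxra (0.068 to 0.11) kept their sign without passing in any, and Rxrb (-0.039 to 0.010) changed sign.

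**Figure D5:**
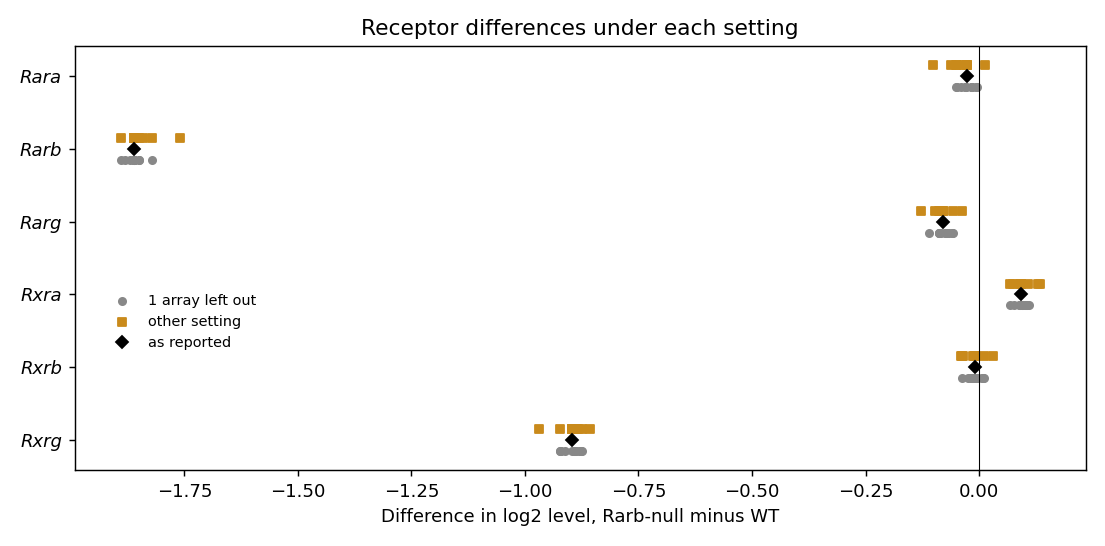
Difference in log2 level, Rarb-null minus WT, of each receptor gene as reported (black diamonds), with each of the 11 arrays left out (grey points) and under the other settings (orange squares). Rarb and Rxrg stay far below 0 in every one, Rarg stays below 0, Rxra stays above 0, and Rara and Rxrb lie on both sides of 0.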

How the data were processed

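The authors deposited 1 value per probe set and array, on a log scale after RMA, per the labels; RMA subtracts background, equalises the distributions of the arrays and summarises probes, which compresses folds of dim genes. That the deposited values are log2 was inferred from their range; the RMA version and whether all 11 arrays were normalised together are not given in the sources used here. Scan dates and probe background were not used here.

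Groups came from the sample titles. Gene names came from the platform's annotation table, updated through Entrez identifiers against RefSeq (21698 of 21789 probe sets with 1 symbol; 1621 had several). Of 35556 probe sets, only those with 1 symbol were used, and a gene with several was represented by its brightest. Genes whose mean over the 11 arrays exceeded the 40th percentile were tested with limma 3.58.1 (R 4.3.3; lmFit and eBayes, no covariates), with Benjamini-Hochberg adjustment over all 11963 and a threshold of 0.05. The limma p-values set the genotype difference against the spread between single mice, which limma moderates over all genes tested. Genes were named by a rule: the 6 members, the 4 smallest p of each list, and the 3 genes nearest to each called member. The fit was tested on simulated data. Promoter windows came from RefSeq, GRCm38.p6. Python 3.11.15 with matplotlib 3.10.9 drew the figures.

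The members and lists were chosen with earlier results of these data known. Alternatives were no filter or one at the 60th percentile, arrays centred on the median of their tested genes, and repeated quantile normalisation. The fit was also run with array weights, a trended robust variance, a block for the replicate number, and cortical or oligodendrocyte marker covariates. Probe sets were also averaged, and each array was left out in turn.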

Additional observations from a re-analysis of the deposited data

Results flagged for a closer look

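No receptor gene had an array standing apart from its group by Dixon's criterion. Among 74 groups of values examined (30 named genes and 7 marker levels in each genotype), 4 did, all of them Rarb-null replicate 5; chance gives about 1 in 20. Nr4a2 read 9.60 there and 8.45 to 8.68 in the other Rarb-null arrays, and Ppard 9.12 against 8.92 to 8.94. The cortical marker level was 9.42 against 8.83 to 8.97, and the astrocyte marker level 10.23 against 10.14 to 10.16. Without this array Rarb differed by -1.82 and Rxrg by -0.92.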

How the results depend on the processing

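The falls of Rarb (-1.89 to -1.76) and Rxrg (-0.97 to -0.86) passed the threshold under all 21 alternatives. Centring of arrays turned Rara to 0.013 and Rxrb to 0.031 and brought Rxra past the threshold (0.13), and repeated quantile normalisation turned Rxrb to 0.0099; leaving out single arrays gave Rxrb -0.039 to 0.010. The stricter filter removed Rara, Rarg and Rxra. The cortical covariate gave 990 called genes in all, 1 coregulator, 1 RXR partner and 1 direct-repeat receptor, and turned Nr4a2 to -0.21 and Ppard to -0.013. The oligodendrocyte covariate gave 1388 called genes. Without single arrays 1547 to 2576 genes were called, the lowest without Rarb-null replicate 3. Centring gave 4 RXR partners and made 64.1% of calls higher in Rarb-null arrays, against 38.7% as deposited. The cause of these shifts was not tested. Same-numbered arrays correlated from 0.0557 to 0.425 in their deviations, and 2 of 5 Rarb-null arrays were closest to their own number. These values do not decide whether the numbers mark pairs, and the main fit did not take them as pairs. With the replicate block 2872 genes were called, 1 of them a direct-repeat receptor, and the ratios gave -0.94 (Rxrg over Rxra), -0.84 (Rxrg over Rxrb), -1.81 (Rarb over Rara) and -1.78 (Rarb over Rarg) with an exact p of 0.0625, the smallest that 5 pairs allow. Of 24 other named genes, 17 kept sign and side of the threshold under all alternatives run.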

Other observations

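Among the 6 WT arrays, 15 pairs of receptor genes were set against each other by exact permutation tests of their correlation. The largest was Rxra with Rxrg (Pearson r = -0.79, exact p = 0.0583, adjusted 0.5; Spearman rho = -0.71, exact p = 0.136, adjusted 0.51), and r was -0.35 without the 2 arrays farthest from the Rxra median. Rarb and Rxrg gave r = -0.45 (exact p = 0.358, adjusted 0.654; rho = -0.60, exact p = 0.242, adjusted 0.605), and r was -0.16 without 2 arrays. None of the 15 passed after adjustment. The 5 Rarb-null arrays were not set against each other in this way. The genotypes form separate clusters for Rarb and Rxrg, so no pooled correlation is given.

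The deposited Rxrb value was 9.32291, to the last digit, in 3 arrays (Rarb-null replicate 1 and WT replicates 2 and 4). No other receptor gene repeated a value. Over all 35556 probe sets, 39.4% had a value shared by at least 2 arrays and 20.9% by at least 3.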
